A study of Rattus norvegicus with 15 samples.

Results

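Endothelial markers and angiogenic receptors were described in the epididymal fat pad, a visceral depot next to the testis, of diet-induced obese and lean rats. The set was 9 named genes: Pecam1, Cdh5, Kdr, Flt1, Tek, Tie1, Vwf, Eng and Vegfb. A gene's values came from the probe sets, groups of probes against 1 transcript, whose platform annotation named it and no other gene. By this rule 8 of the 9 had a probe set, among 14217 genes in all, with 11 probe sets between them. Cdh5 is named only. The obese group was 7 male Long-Evans rats given a diet rich in fat and sucrose since weaning. The lean group was 8 male Long-Evans rats given ordinary chow over the same time. Rats of both groups arrived at 14 weeks of age and lived on a reversed light cycle. They were given a glucose test at 21 weeks of age and bled fasted at 25 weeks, were killed in the fed state at 26 weeks, and each gave 1 Affymetrix RAE230_2 array. Diet and obesity were given together and cannot be told apart here, and the rats are a model of diet-induced obesity in 1 sex and 1 strain.

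Endothelial cells line blood vessels and, in fat, also carry fatty acids from the blood to adipocytes. Growth factors of the VEGF family act on them through the receptor tyrosine kinases encoded by Kdr and Flt1, while angiopoietins act through Tek, with Tie1 as its partner. Eng encodes endoglin, a coreceptor for BMP and TGF-beta ligands, and fat is known to need new vessels as it grows.

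The values were MAS5 signals, a brightness on a linear scale, scaled to a trimmed mean of 1500.34 to 1500.42 on each array. Precision is limited by the number of arrays. Obese rat 1 and lean rat 7 gave near-identical arrays, with a Pearson correlation of 0.978 across probe sets, against 0.957 for the next closest pair, although their labels put them in opposite groups. Results are therefore given with all 15 arrays and with the 13 arrays left without that pair. Differences are on the scale log2(signal + 79.9), obese minus lean, with the 10th percentile of the signals as the pseudocount, and this scale understates the change of dim genes. Each was tested with limma over 18625 probe sets kept by a filter on low signal, with a threshold of 0.05 on the Benjamini-Hochberg adjusted p. In whole tissue, fewer cells of a type and less RNA per cell cannot be told apart.

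None of the 8 genes passed the threshold in either set of arrays, and the ranges of obese and lean rats overlapped for each of them. Ranges did not overlap for only 0.193% of all probe sets in the 15 arrays and 1.45% in the 13 arrays, so overlap in all 8 lies near the background. In the 15 arrays 0% of all probe sets passed in limma's test and in the 13 arrays 1.01% did, so a count of 0 members lies near the background. Eng stood apart from the other members in size: it was 25.8% higher in obese rats in the 15 arrays and 30.7% higher in the 13 arrays. It was also the 1 member with an unadjusted p under 0.05, in both sets. At that level 15.6% of all probe sets differed in the 15 arrays (6.74% higher and 8.82% lower in obese rats), and 17.8% in the 13 arrays (7.59% higher and 10.2% lower). Across the 8 genes, 5 log2 differences were positive and 3 negative in both sets, with a median of 0.09 in each, against a median of -0.04 over all probe sets in each, of which 42.5% were positive in the 15 arrays and 42.2% in the 13 arrays. Without obese rat 3 the members' median was 0.012 and 0.0093 in the 15 and 13 arrays. With median centring, which moved the median of all probe sets to 0.06 and 0.07, it was 0.19 and 0.21, and 7 of the 8 members were positive in both sets. Levels are not compared between genes, since each probe set has its own brightness.

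**Figure D1:**
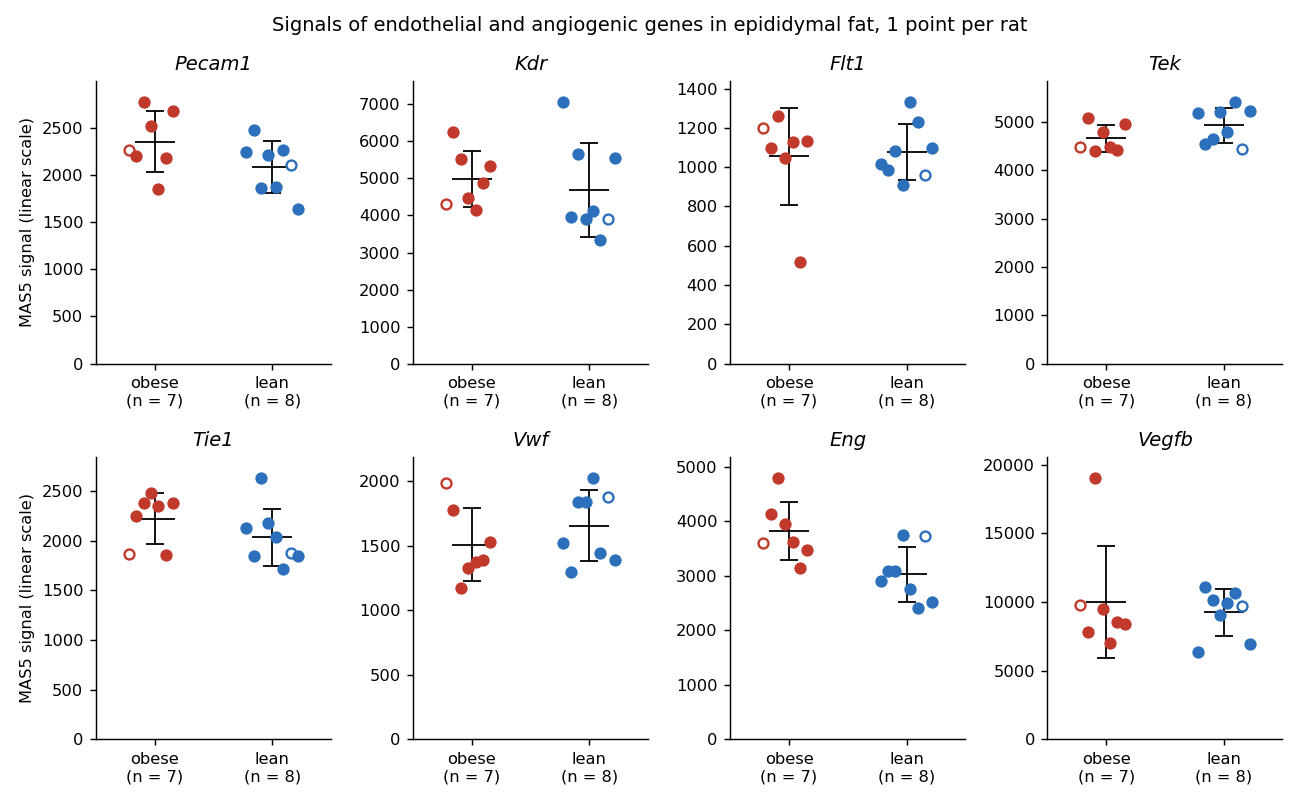
MAS5 signal (linear scale, from 0) of the brightest probe set of each of the 8 genes, 1 point per rat, obese rats on the left (n = 7) and lean rats on the right (n = 8), with bars for the mean ± SD. Open circles are obese rat 1 and lean rat 7, whose arrays were near-identical. The groups overlap in every panel, and Eng has 3 obese rats above the highest lean rat.

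Pecam1 and Vwf mark endothelium in general. Pecam1 (Entrez gene 29583) encodes an adhesion protein of the contacts between endothelial cells. Its signal ran over 1850.3, 2258.6 and 2771 in obese rats (lowest, median, highest), against 1635.1, 2157.2 and 2476.8 in lean rats. 3 obese rats lay above the highest lean rat, and 1 lean rat lay below the lowest obese rat. The log2 difference was 0.17 ± 0.11 (SE; limma adjusted p = 0.459, n = 7 and 8) in the 15 arrays and 0.18 ± 0.12 (SE; limma adjusted p = 0.468, n = 6 and 7) in the 13 arrays. The 95% interval in the 13 arrays, -0.08 to 0.44, holds a difference of 0 and one of over 0.4.

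Vwf (Entrez gene 116669), the large clotting glycoprotein that endothelial cells store and release, ran the other way. Its signal was 1169.9, 1391 and 1988.4 in obese rats (lowest, median, highest), against 1299.9, 1681.35 and 2028 in lean rats. The highest obese value was that of obese rat 1, 1 of the near-identical pair. Without the pair 3 lean rats lay above all 6 obese rats, whose highest value was then 1776.7. The log2 difference was -0.13 ± 0.12 (SE; limma adjusted p = 0.643) in the 15 arrays and -0.17 ± 0.13 (SE; limma adjusted p = 0.503) in the 13 arrays, within the spread between rats in both.

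Of the VEGF receptors, Kdr (Entrez gene 25589) encodes VEGF receptor 2, the main signalling receptor for VEGF-A in endothelium. Its brighter probe set gave 4150.4, 4884.9 and 6253.8 in obese rats (lowest, median, highest), against 3330.3, 4049.4 and 7063.7 in lean rats. The lean rats were split: 5 of 8 lay below every obese rat, while lean rats 1, 3 and 8, at 7063.7, 5660.9 and 5562.2, lay among or above the highest obese rats. All 7 obese rats lay above the lean median, yet the log2 difference was only 0.12 ± 0.15 (SE; limma adjusted p = 0.748), and 0.12 ± 0.17 (SE; limma adjusted p = 0.749) in the 13 arrays. A second, dim Kdr probe set, below the filter, ran between 73.6 and 556.7 in obese rats and between 153.9 and 751 in lean rats. Fitted without the filter, it gave a log2 difference of -0.51 ± 0.30 (SE; limma adjusted p = 0.511) in the 15 arrays, the opposite sign of the brighter one.

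Flt1 (Entrez gene 54251) encodes VEGF receptor 1, which binds VEGF-A, VEGF-B and placental growth factor and can act as a decoy. Its brightest probe set gave 518.6, 1129.6 and 1259.6 in obese rats (lowest, median, highest), against 910.6, 1049.75 and 1331.7 in lean rats. The lowest value belonged to obese rat 7, and the other obese rats, at 1049.1 to 1259.6, lay inside the lean range. Its log2 difference was -0.06 ± 0.15 (SE; limma adjusted p = 0.880) in the 15 arrays and -0.11 ± 0.16 (SE; limma adjusted p = 0.757) in the 13 arrays, and without obese rat 7 it had the opposite sign, 0.089 and 0.056. Another Flt1 probe set above the filter ran between 446.2 and 852.4 in obese rats and between 445.1 and 1023.8 in lean rats. There, 3 lean rats lay above the highest obese rat, and the log2 differences were -0.10 (limma adjusted p = 0.826) and -0.15 (limma adjusted p = 0.718) in the 15 and 13 arrays. The dimmest Flt1 probe set, below the filter, ran between 201.2 and 764.8 in obese rats and between 219.8 and 736.2 in lean rats.

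Vegfb (Entrez gene 89811) is the ligand in the set, a VEGF family member that binds Flt1. Its signal was 7050.3, 8532.1 and 19055 in obese rats (lowest, median, highest), against 6343, 9832.45 and 11119.7 in lean rats. Obese rat 3 carried the highest value. It was the only obese rat above the lean median, and the other 6 lay at or below 9779.1. The mean was accordingly higher in obese rats, 10014.6 ± 4095 against 9255 ± 1723 in lean rats (SD, n = 7 and 8), while the median was lower. The log2 difference was 0.06 ± 0.18 (SE; limma adjusted p = 0.898) in the 15 arrays and 0.07 ± 0.21 (SE; limma adjusted p = 0.894) in the 13 arrays. Without obese rat 3 it was -0.10 and -0.13.

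The receptors of the angiopoietin system gave opposite signs. Tek (Entrez gene 89804) encodes the receptor that angiopoietins bind, which keeps resting vessels stable. Its signal was 4399.4, 4484.9 and 5073.8 in obese rats (lowest, median, highest), against 4447.8, 4985.4 and 5412.3 in lean rats. 4 lean rats lay above the highest obese rat, and 6 of 7 obese rats lay below the lean median. The difference was small, -0.08 ± 0.08 on the log2 scale (SE; limma adjusted p = 0.652) in the 15 arrays and -0.09 ± 0.09 (SE; limma adjusted p = 0.616) in the 13 arrays. Its 95% interval in the 13 arrays, -0.27 to 0.09, was the narrowest of the 8 genes.

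Tie1 (Entrez gene 89806), the related receptor that joins Tek at the cell surface, had signals of 1853, 2348.2 and 2482.2 in obese rats (lowest, median, highest). In lean rats they were 1718.9, 1955.05 and 2634.3. 3 lean rats lay below every obese rat, and lean rat 3, at 2634.3, lay above all of them. Obese rats 1 and 7, at 1869.4 and 1853, sat below the other 5 obese rats, which held 2251.3 to 2482.2. The log2 difference was 0.13 ± 0.10 (SE; limma adjusted p = 0.574) in the 15 arrays and 0.15 ± 0.11 (SE; limma adjusted p = 0.504) in the 13 arrays. Neither passed the threshold.

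Eng (Entrez gene 497010) showed the largest difference of the 8 genes in both sets, by their brightest probe sets. Its signal was 3153.6, 3630.6 and 4803.5 in obese rats (lowest, median, highest), against 2408.8, 3000.85 and 3755.2 in lean rats. All 7 obese rats lay above the lean median, 3 of them above the highest lean rat, and 6 of 8 lean rats lay below every obese rat. The lean rats inside the obese range were rat 4, at 3755.2, and rat 7, at 3741.5, and rat 7 is 1 of the near-identical pair. The mean was 3823 ± 535 in obese rats and 3035 ± 504 in lean rats (SD, n = 7 and 8), and 3858 ± 577 against 2934 ± 449 (SD, n = 6 and 7) without the pair.

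The log2 difference of Eng was 0.33 ± 0.11 (SE; 95% interval 0.09 to 0.57) in the 15 arrays, with an unadjusted p of 0.0103 and a limma adjusted p of 0.192. In the 13 arrays it was 0.39 ± 0.12 (SE; 95% interval 0.13 to 0.65), with an unadjusted limma p of 0.00642 and a limma adjusted p of 0.125. By p-value Eng ranked 995 and 958 of the 18625 probe sets in the 15 and 13 arrays, so many probe sets outside the set gave smaller p-values. Centring each array on its median shifted the median difference of all probe sets from -0.04 to 0.07 in the 13 arrays. Eng then passed, with 0.50 and a limma adjusted p of 0.0400, where 1.92% of all probe sets passed as higher in obese rats. Relative to the median of all probe sets, Eng was higher by 0.43 under both scalings of the 13 arrays. That equality is fixed by the method, since centring shifts every probe set of an array by the same amount. The same centring gave a limma adjusted p of 0.0830 in the 15 arrays. Over all alternatives the limma adjusted p of Eng ran from 0.0830 to 0.342 in the 15 arrays and from 0.0400 to 0.215 in the 13 arrays, with a positive difference in each.

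**Figure D2:**
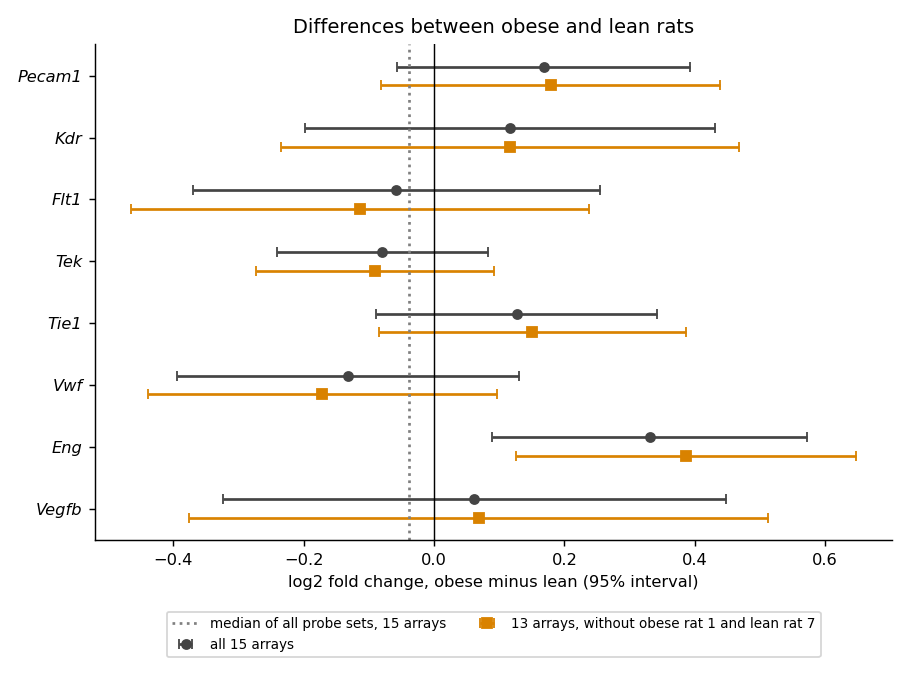
Log2 fold change, obese minus lean, with its 95% interval for the 8 genes, from all 15 arrays (circles) and from the 13 arrays without obese rat 1 and lean rat 7 (squares). The dotted line is the median of all probe sets in the 15 arrays, -0.04. The intervals of Eng lie above 0, and those of the other 7 genes include it.

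Eng and Tie1 were the pair of members with the highest Pearson correlation across the pooled rats in both sets of arrays, as deposited, and the 250 bases before the start of each are shown for that reason. They come from RefSeq (GRCr8), Eng at chr3:36332029-36332278 on the plus strand and Tie1 at chr5:137304982-137305231 on the minus strand, 5′ to 3′ in the direction of transcription. Capitals mark GGAA and its reverse complement TTCC, the core letters of sites for ETS factors, transcription factors known to act at endothelial genes.
Eng: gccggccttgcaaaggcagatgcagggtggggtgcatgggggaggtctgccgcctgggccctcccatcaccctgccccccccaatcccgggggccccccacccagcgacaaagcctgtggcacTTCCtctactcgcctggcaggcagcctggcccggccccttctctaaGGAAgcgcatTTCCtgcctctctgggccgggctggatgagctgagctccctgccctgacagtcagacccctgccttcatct
Tie1: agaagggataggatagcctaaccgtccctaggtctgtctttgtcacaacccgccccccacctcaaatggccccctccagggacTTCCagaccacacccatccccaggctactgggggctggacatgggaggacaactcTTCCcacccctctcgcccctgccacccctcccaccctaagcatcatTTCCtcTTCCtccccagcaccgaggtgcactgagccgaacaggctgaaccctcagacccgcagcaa
The core occurred 3 times before Eng and 4 times before Tie1, on either strand. Of the 33469 promoters in the table, 55.5% held at least 3 and 34.7% at least 4. Promoters of 3 further members were in the table, where Kdr held 4, Flt1 3 and Vegfb 1. A match of letters is a description and not a bound site.

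Whether the members varied together across rats was asked of all 28 pairs, with permutation tests of Pearson's r and Spearman's rho and Benjamini-Hochberg adjustment over the pairs. Pearson's r ran from -0.48 to 0.54 with a median of 0.04 in the 15 arrays, and 16 of 28 pairs were positive. In the 13 arrays r ran from -0.44 to 0.67 with a median of 0.07, again with 16 positive. Across all pairs of probe sets the median r was 0.01 in both sets, and 50.6% of those pairs were positive in each. No pair passed the adjustment in either set, and 3 pairs in the 15 arrays and 1 in the 13 arrays had an unadjusted Pearson p under 0.05. The pooled medians mix obese and lean rats. Among obese rats the median r was 0.25 with 23 of 28 pairs positive in the 15 arrays (n = 7), and 0.31 with 21 positive in the 13 arrays (n = 6). Among lean rats it was -0.09 with 12 positive (n = 8) and -0.04 with 11 positive (n = 7). The difference between the groups was not tested, and r over all pairs of probe sets was not computed within groups. The pairs also share genes and rats.

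Eng and Tie1 gave the highest pooled r. In the 15 arrays r was 0.54 (permutation p = 0.0384, adjusted 0.450) and rho 0.58 (permutation p = 0.0270, adjusted 0.756), and r was 0.59 without the 2 rats farthest from the median of Tie1. In the 13 arrays r was 0.67 (permutation p = 0.0126, adjusted 0.352) and rho 0.66 (permutation p = 0.0165, adjusted 0.461), and r was 0.75 without the 2 farthest rats. Among obese rats alone r was 0.57 (n = 7, exact permutation p = 0.190) in the 15 arrays and 0.60 (n = 6, exact permutation p = 0.238) in the 13 arrays. Among lean rats it was 0.35 (n = 8, exact permutation p = 0.398) and 0.58 (n = 7, exact permutation p = 0.173). The sign was the same in both groups, and no value within a group passed. The order of the pairs changed with the setting. In the 15 arrays Pecam1 and Vegfb were highest with each group centred on its own mean, at 0.53 against 0.43 for Eng and Tie1, and Pecam1 and Eng with quantile normalization, at 0.56 against 0.54. Eng and Tie1 stayed highest in both settings of the 13 arrays, at 0.58 and 0.67. Within groups of the 15 arrays Eng and Vegfb had the highest r among obese rats, at 0.71 (n = 7, exact permutation p = 0.0942). Their rho was 0.21 (exact permutation p = 0.662), and obese rat 3 was highest for both. Among lean rats Tie1 and Vwf had the highest r, at 0.53 (n = 8, exact permutation p = 0.177). Kdr and Vegfb had the lowest there, r -0.78 (exact permutation p = 0.0253, adjusted 0.358) and rho -0.43. Flt1 and Eng followed, with r -0.77 (exact permutation p = 0.0256, adjusted 0.358) and rho -0.90 (exact permutation p = 0.00456, adjusted 0.128). Among obese rats these r were 0.24 and 0.65.

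Pecam1 and Eng had an r of 0.53 (permutation p = 0.0415, adjusted 0.450; rho 0.34, permutation p = 0.216) in the 15 arrays. It was 0.18 without the 2 rats farthest from the Pecam1 median, a step that narrows the range of Pecam1 and can itself lower r. Pecam1 and Vegfb had an r of 0.51 (permutation p = 0.0482, adjusted 0.450; rho 0.40, permutation p = 0.140), which was 0.09 without the 2 farthest rats. The VEGF receptors Kdr and Flt1 had an r of -0.04 (permutation p = 0.892; rho 0.04) in the 15 arrays and -0.05 (permutation p = 0.885; rho -0.04) in the 13 arrays. The partners Tek and Tie1 had an r of -0.11 (permutation p = 0.681; rho -0.20) and -0.30 (permutation p = 0.308; rho -0.41). The lowest r in both sets was that of Tek and Eng, at -0.48 (permutation p = 0.0716, adjusted 0.501) in the 15 arrays and -0.44 (permutation p = 0.131, adjusted 0.695) in the 13 arrays, with a rho of -0.43 (permutation p = 0.115) and -0.44 (permutation p = 0.135). Without the 2 rats farthest from the median of Tek these r were -0.14 and -0.04.

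**Figure D3:**
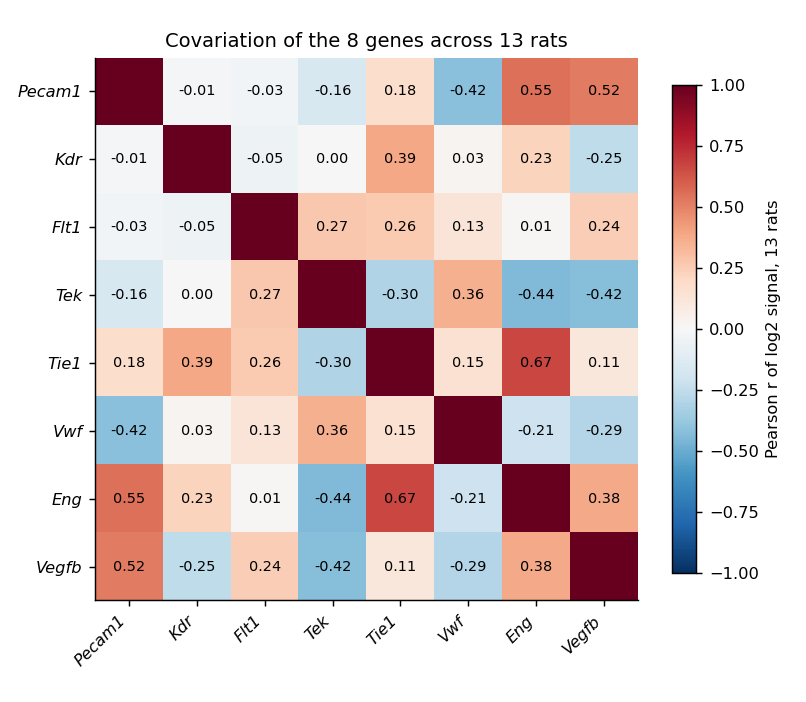
Pearson correlations of log2 signals across the 13 rats left without obese rat 1 and lean rat 7, for the 28 pairs of the 8 genes; each pair appears on both sides of the diagonal. The colour scale runs from -1 to 1. Eng and Tie1 have the highest value, 0.67, and Tek and Eng the lowest, -0.44.

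The members were also set against the mean log2 signals of macrophage, adipocyte, pericyte and smooth muscle, and other endothelial markers, and against the 3′ to 5′ ratio of the Gapdh probe sets, a sign of RNA quality, 40 relations in each set of arrays. None passed the adjustment over the 40. By Pearson's r the relation with the smallest p was that of Vegfb with the mean of the 10 adipocyte markers. Its r was 0.72 (permutation p = 0.00209, adjusted 0.0836) and rho 0.59 (permutation p = 0.0224, adjusted 0.164) in the 15 arrays, and 0.74 (permutation p = 0.00444, adjusted 0.178) and 0.68 (permutation p = 0.0141, adjusted 0.192) in the 13 arrays. Without the 2 rats farthest from the median of the adipocyte mean, r was 0.56 and 0.65. Within obese rats r was 0.75 (n = 7, exact permutation p = 0.0280) and within lean rats 0.62 (n = 8, exact permutation p = 0.108) in the 15 arrays, so the sign was the same in both groups. Obese rat 3, the highest for Vegfb, was also the highest for the adipocyte markers.

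By rank Vegfb went as closely with other measures. With the pericyte and smooth muscle mean its rho was 0.71 (permutation p = 0.00392, adjusted 0.157) in the 15 arrays and 0.66 (permutation p = 0.0159, adjusted 0.192) in the 13 arrays, with an r of 0.47 (permutation p = 0.0793 and 0.109) in both. With the Gapdh ratio its rho was 0.66 (permutation p = 0.00862, adjusted 0.164) and 0.67 (permutation p = 0.0142, adjusted 0.192), with an r of 0.43 (permutation p = 0.108 and 0.144). Without the 2 rats farthest from the median of the measure these r were 0.49 for the pericyte and smooth muscle mean and 0.46 for the Gapdh ratio in both sets. The macrophage mean ran the other way, with a rho of -0.59 (permutation p = 0.0224, adjusted 0.164) and -0.53 (permutation p = 0.0677, adjusted 0.301) and an r of -0.42 (permutation p = 0.121 and 0.159) in both. That r was -0.25 and -0.29 without the 2 farthest rats. Within groups of the 15 arrays the rho with the macrophage mean was -0.96 among obese rats (n = 7, exact permutation p = 0.00278, adjusted 0.111) and -0.64 among lean rats (n = 8, exact permutation p = 0.0962, adjusted 0.550). Which of these measures Vegfb goes with was not tested.

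**Figure D4:**
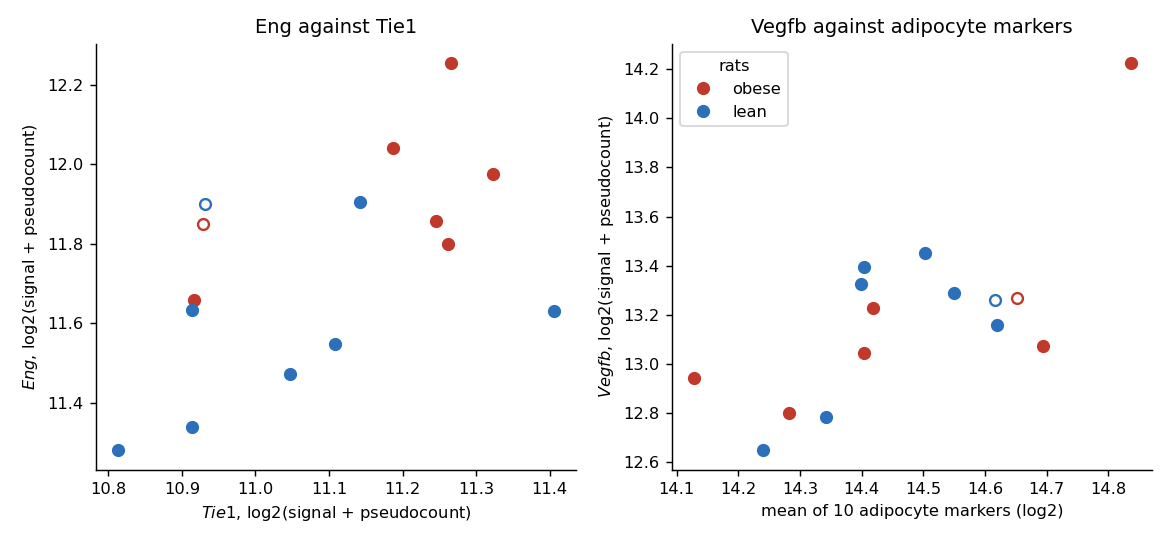
Left, Eng against Tie1, and right, Vegfb against the mean of 10 adipocyte markers, all as log2(signal + 79.9), 1 point per rat, obese rats in red and lean rats in blue. Open circles are obese rat 1 and lean rat 7. Pearson's r in the 15 arrays is 0.54 on the left and 0.72 on the right, where obese rat 3 is the point at the top.

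The mean of the macrophage markers was higher and that of the Gapdh ratio lower in obese than in lean rats, though neither mean was tested between groups. The summed signal of the 10 macrophage markers above the filter was 79186 to 177743 in obese rats and 59396 to 84123 in lean rats, and none of these markers was at 0. Without the near-identical pair the lowest obese sum was 88525, above every lean rat. The mean log2 signal of these markers, the measure used for the correlations, still overlapped there. It was 12.42 to 13.37 in obese rats and 11.82 to 12.56 in lean rats. Eng and the macrophage mean had an r of 0.47 (permutation p = 0.0742, adjusted 0.289) and a rho of 0.50 (permutation p = 0.0572) in the 15 arrays. The same values were 0.55 (permutation p = 0.0519, adjusted 0.440) and 0.64 (permutation p = 0.0208) in the 13 arrays. Without the 2 rats farthest from the median of the macrophage mean, r was 0.44 and 0.45. Within groups of the 15 arrays r was -0.24 among obese rats (n = 7, exact permutation p = 0.618) and 0.46 among lean rats (n = 8, exact permutation p = 0.247). Tie1 went as closely with the macrophage mean in the 15 arrays. Its r was 0.53 (permutation p = 0.0433, adjusted 0.289) and its rho 0.60 (permutation p = 0.0225, adjusted 0.164). Kdr had an r of 0.38 and a rho of 0.55 (permutation p = 0.0373, adjusted 0.186). For Pecam1 r was 0.03, and it was negative for Flt1, Tek, Vwf and Vegfb. Eng and the mean of the other endothelial markers had an r of 0.47 (permutation p = 0.0781, adjusted 0.289) and a rho of 0.49 (permutation p = 0.0638) in the 15 arrays, but r was 0.24 without the 2 rats farthest from the median of that mean. Over the 13 arrays, r was 0.60 (permutation p = 0.0333, adjusted 0.440) and rho 0.63 (permutation p = 0.0240, adjusted 0.192), with an r of 0.70 without the 2 farthest rats. Within groups this r was positive in both. It was 0.80 among obese rats (n = 7, exact permutation p = 0.0234, adjusted 0.349) and 0.21 among lean rats (n = 8, exact permutation p = 0.608, adjusted 0.905) in the 15 arrays, and 0.80 (n = 6, exact permutation p = 0.0569, adjusted 0.322) and 0.59 (n = 7, exact permutation p = 0.163, adjusted 0.576) in the 13 arrays. Among obese rats Eng went as closely with the pericyte and smooth muscle mean, with an r of 0.79 (n = 7, exact permutation p = 0.0264, adjusted 0.349) in the 15 arrays. In the 13 arrays that r was 0.91 (n = 6, exact permutation p = 0.0167, adjusted 0.322). Among lean rats it was 0.11 and 0.06, and across all rats 0.08 and 0.04, in the 15 and 13 arrays.

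The log2 Gapdh ratio was 0.77 ± 0.28 in obese rats and 1.05 ± 0.26 in lean rats (SD, n = 7 and 8). Its ranges overlapped, at 0.35 to 1.07 in obese and 0.56 to 1.38 in lean rats. With that ratio as a covariate the Eng difference was 0.42 (limma adjusted p = 0.342) in the 15 arrays and 0.53 (limma adjusted p = 0.131) in the 13 arrays, larger than without it. The part of macrophages in the difference of Eng was not tested.

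Outside the set, Adgrg1, an adhesion G protein-coupled receptor, had the pattern most like the mean of the 8 genes, with an r of 0.90 across the 13 arrays and 0.89 across the 15. It was followed in the 13 arrays by Furin at 0.85, Npr2 at 0.84, Cdk2 at 0.84 and Pkd1 at 0.82. Over the 15 arrays, Furin at 0.82, Cdk2 at 0.81, Gsg1l at 0.81 and Abtb3 at 0.79 followed. These genes were picked as the closest of all probe sets above the filter, and the arrays are shared, so the values are a description. The mean was taken over centred log2 values that were not scaled, so the members that varied most weigh most in it. The members themselves hardly varied together, with a median r of 0.04 and 0.07 in the 15 and 13 arrays.

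Related lists of vascular genes gave no call either. Of 13 angiogenic ligands, 11 were above the filter, 4 with a positive and 7 with a negative log2 difference in the 13 arrays, with a median of -0.07. Vegfd, a VEGF family ligand, had 0.59 ± 0.21 (SE; limma adjusted p = 0.163), Fgf2, a fibroblast growth factor, -0.38 ± 0.13 (SE; limma adjusted p = 0.157), and Egfl7 -0.26 ± 0.18 (SE; limma adjusted p = 0.475). Vegfa itself had -0.07 (limma adjusted p = 0.725), and another of its probe sets had the opposite sign.

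Of 19 other vascular receptors and coreceptors, 14 were above the filter, 6 positive and 8 negative, with a median of -0.14 and none past the threshold. The smallest p-value was that of Nrp1, a coreceptor for VEGF and semaphorins, with signals of 7662 to 11275.7 in obese rats and 5649.5 to 7452.9 in lean rats of the 13 arrays. These ranges did not overlap, as for 1.45% of all probe sets. The log2 difference of Nrp1 was 0.46 ± 0.11 (SE; limma adjusted p = 0.0611), and 0.39 ± 0.11 (SE; limma adjusted p = 0.122) in the 15 arrays. It passed in the 13 arrays under several settings, with a limma adjusted p of 0.0264 with trend and robust moderation, while a second Nrp1 probe set had 0.24 (limma adjusted p = 0.386). Ramp2 and Calcrl, whose products join to form a receptor for adrenomedullin, had opposite signs. Ramp2 had 0.39 ± 0.11 (SE; limma adjusted p = 0.0899) and Calcrl -0.50 ± 0.18 (SE; limma adjusted p = 0.161).

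Of 26 other endothelial markers, 24 were above the filter, 11 positive and 13 negative, with a median of -0.03 and none past the threshold in the 13 arrays. The smallest p-values were those of Tfpi, an inhibitor of clotting, at -0.48 ± 0.14 (SE; limma adjusted p = 0.0946), and Aqp1, a water channel, at 0.65 ± 0.19 (SE; limma adjusted p = 0.107). Cd36, a fatty acid transporter that adipocytes and macrophages also express, had 0.49 ± 0.16 (SE; limma adjusted p = 0.141). Genes of activated endothelium had a median of -0.07 over 5, with the adhesion molecules Vcam1 at 0.35 and Icam1 at 0.18 and the vasoconstrictor Edn1 at -0.18. Only 3 of 7 lymphatic markers were above the filter, Pdpn at -0.15, Reln at -0.08 and Lyve1 at 0.08. None of these passed.

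Markers of neighbouring cells were read the same way in the 13 arrays. Of 11 pericyte and smooth muscle genes above the filter 3 were positive and 8 negative, with a median of -0.04. The largest difference there, Pdgfrb at -1.04 (limma adjusted p = 0.150), came from 1 probe set, while a second gave 0.35. Macrophage markers were the exception among the lists: all 10 above the filter were positive, with a median of 0.57, and 4 rose past the threshold, against 0.725% of all probe sets that passed as higher and 0.290% as lower. They were Lgals3 at 0.90 (limma adjusted p = 0.0199), Laptm5 at 0.97 (limma adjusted p = 0.0273), Tyrobp at 0.88 (limma adjusted p = 0.0376) and Cd68 at 1.03 (limma adjusted p = 0.0399). With all 15 arrays none of them passed, nor in the 13 arrays with no filter, with the rat number as a block or with the Gapdh ratio as a covariate, and leaving out single rats of the 13 left 1 to 4 genes of the lists.

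The remaining lists held no gene past the threshold in either set of arrays. In the 13 arrays 10 adipocyte markers had a median of -0.06, with leptin (Lep) the highest at 0.79 (limma adjusted p = 0.0646), 7 mesothelial markers -0.31, 3 red blood cell markers 0.11 and 2 platelet markers 0.13. Platelets also hold Vwf and Pecam1, and of their markers Pf4 had 0.42 (limma adjusted p = 0.152) and Itga2b -0.16 (limma adjusted p = 0.711). Of 4 epididymal epithelium markers with a probe set only Cst8 was above the filter, at -0.01. The part of any of these cells in the members' differences was not tested.

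**Figure D5:**
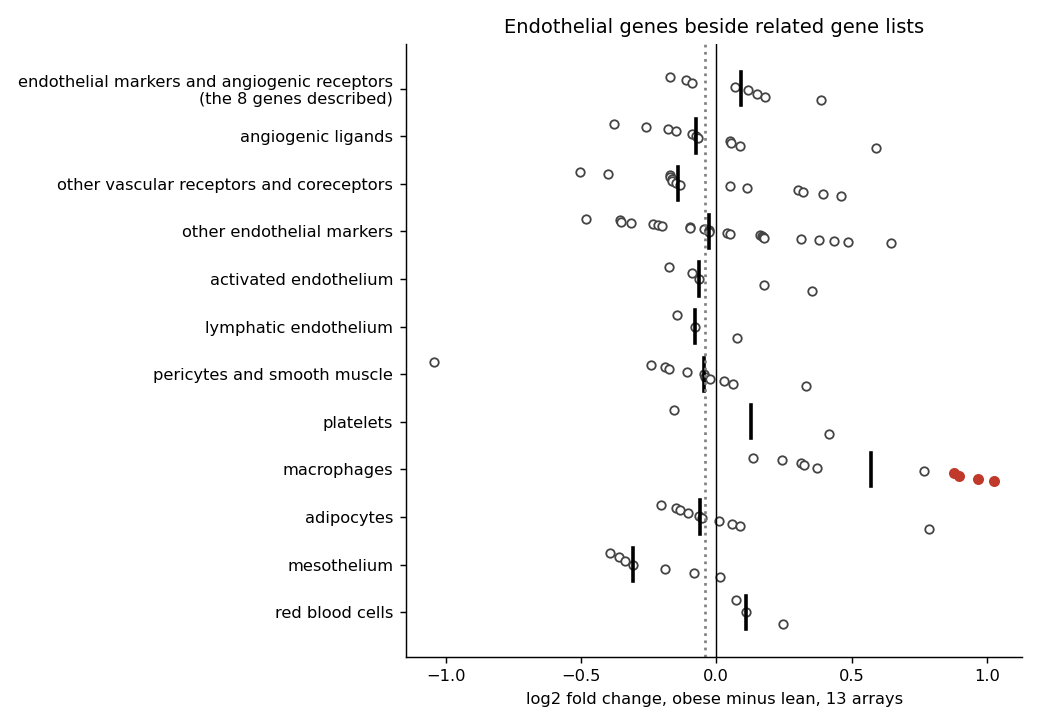
Log2 fold change, obese minus lean, of each gene above the filter (circles) in the 13 arrays, for the 8 genes described and for lists of related genes and markers of other cells, with a bar at each list's median. Filled red circles passed the threshold, which only the 4 macrophage genes did. The dotted line is the median of all probe sets, -0.04.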

How the data were processed

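Total RNA of epididymal fat was hybridised to 1 array per rat, per the labels. The deposited table holds linear intensity values, made with MAS5 per the submitters' processing notes, and scaled to a common trimmed mean as the values show. Its version and background settings are not given in the sources used here. How much RNA was used, and with which reagent it was extracted, differ between the labels and the design text. MAS5 makes low signals noisy, and under its scaling very bright probe sets can lower all others. Of 31099 probe sets, 57 were controls, 20826 named 1 gene, 436 several and 9780 none. Names came from the platform annotation.

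Differences were computed on log2(signal + 79.9), without centring. Probe sets with a mean above the 40th percentile were kept (18625, 10514 genes) and fitted by lmFit and eBayes of limma 3.58.1 (R 4.3.3). Members are counted by their brightest probe set. Dim probe sets came from a fit with no filter. The brightest probe set stood for every other gene; of 31 related genes with over 1 above the filter, 13 had probe sets of opposite sign. Correlations used 100000 permutations (exact within groups) in Python 3.11.15 with scipy 1.17.1. Figures were drawn with matplotlib 3.10.9. Steps were tested on simulated data.

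The members, the gene lists and the fit without the near-identical pair were chosen with earlier results of these data known. Named were every member, of each list the genes past the threshold and up to 3 more by p-value in the 13 arrays, the 5 genes closest to the members' mean in each set, and Vegfa, chosen after its values were seen. Rats are separate animals, and their numbers name different rats in each group.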

Additional observations from a re-analysis of the deposited data

Results flagged for a closer look

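Obese rat 7 had a Flt1 signal of 518.6, far below the other obese rats at 1049.1 to 1259.6, and stood apart both among the 7 obese rats and among the 6 left without the near-identical pair. The same rat had the lowest Tie1 signal of the obese rats, 1853, set apart from the other 5 obese rats of the 13 arrays at 2251.3 to 2482.2. Among all 7 obese rats it did not stand apart, with obese rat 1 at 1869.4. Obese rat 3 had a Vegfb signal of 19055, far above the other obese rats, at 7050.3 to 9779.1 in the 15 arrays and 7050.3 to 9510.7 in the 13 arrays. These are 5 of 44 tests over the 11 probe sets, the groups and both sets of arrays, and chance alone gives about 1 in 20 of separate tests. The tests are not separate, since the 13 arrays are part of the 15. The Flt1 and Vegfb values each count in both sets, over 22 probe sets and groups.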

How the results depend on the processing

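No member passed under any alternative in the 15 arrays, and in the 13 arrays Eng alone passed, under median centring, a count of 1. The log2 difference of Eng stayed positive in every fit, at 0.27 to 0.38 with 1 rat left out of the 15 arrays and 0.32 to 0.45 with 1 left out of the 13. The differences of Pecam1, Tie1 and Vwf also kept their sign in every fit, while the small ones of Kdr, Flt1, Tek and Vegfb changed sign in some. In the 15 arrays median centring gave 0.044 for Flt1 and 0.022 for Tek, quantile normalization 0.021 for Flt1 and -0.016 for Vegfb, array weights -0.044 for Vegfb, and the Gapdh covariate -0.021 for Kdr and 0.017 for Flt1. With 1 rat left out, Vegfb ran from -0.10 (without obese rat 3) to 0.13, below 0 also without lean rat 1 (-0.012), and Flt1 from -0.10 to 0.089, above 0 without obese rat 7 only. In the 13 arrays median centring gave 0.0025 for Flt1 and 0.025 for Tek, quantile normalization -0.019, array weights -0.060 and the replicate block -0.00052 for Vegfb, and the Gapdh covariate -0.047 for Kdr. With 1 rat left out there, Vegfb ran from -0.13 (without obese rat 3) to 0.15, below 0 also without lean rat 1 (-0.015), and Flt1 from -0.18 to 0.056, again above 0 without obese rat 7 only. The cause was not tested.

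Genes of the related lists past the threshold numbered 0 in the 15 arrays, 2 with the filter at the 60th percentile, and 0 to 5 with 1 rat left out, the 5 being without obese rat 1. In the 13 arrays they numbered 4, against 0 with no filter, 0 with the replicate block, 0 with the Gapdh covariate, 7 with median centring, 7 with trend and robust moderation and 1 to 4 with 1 rat left out. Over all probe sets 189 passed in the 13 arrays (135 higher, 54 lower), against 389 with median centring (357 higher, 32 lower), 334 with the stricter filter, 309 with trend and robust moderation, 124 with a pseudocount of 1, 46 with no filter, 14 with the Gapdh covariate and 51 to 262 with 1 rat left out. In the 15 arrays 0 passed, against 49 with the stricter filter, 8 with trend and robust moderation, 3 with no filter and 245 without obese rat 1. The covariation of members gave 0 adjusted pairs in each setting.

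With the rat number as a block, 0 members passed in either set, and 3 probe sets passed in the 13 arrays. Deviations of same-numbered obese and lean rats correlated at -0.11 to 0.24. Rats of different numbers were not compared, so these values cannot tell whether the numbers pair the arrays.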
